A study of Gallus gallus with 9 samples.

Results

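The serine and one-carbon synthesis genes are enzymes that make serine from a glycolytic intermediate and pass its carbon to folate. The names asked for were PHGDH, PSAT1, PSPH, SHMT1, SHMT2, MTHFD2, MTHFD1L and ALDH1L2. Members were chosen by symbol, as rows of the tables carrying 1 of these 8 names. The tables pair 7 of the 8 names with 1 gene each, out of 24881 Ensembl genes, and SHMT2 was not analysed here. All 7 had enough reads to be among the 14796 genes tested. The set was put together with expression results of these same libraries across PM, GM and DM already known. Levels and fold changes of the 7 are therefore given as descriptions, with no p-value and no conclusion drawn from how many were called.

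The data are RNA sequencing tables of 9 libraries from chicken embryo skeletal muscle cells, 3 in each of 3 groups, all labelled passage 1. PM are primary myoblasts, the mononucleated precursors of muscle fibres, collected when serial plating had just finished. GM are cells labelled proliferating myoblasts in growth medium, RPMI-1640 with 15% fetal bovine serum. DM are cells labelled myotubes after 4 days in differentiation medium, RPMI-1640 with 2% horse serum. The labels name no strain, embryo age or sex, and do not say whether replicates are separate cultures, so the p-values speak only of the spread among these libraries, which may be technical. Levels are in FPKM, reads scaled to gene length and sequencing depth, as the authors computed them. Values after ± are SDs over 3 libraries.

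Serine synthesis branches from glycolysis at 3-phosphoglycerate and runs through PHGDH, PSAT1 and PSPH in turn. Serine hydroxymethyltransferases then split serine into glycine and a carbon unit carried by tetrahydrofolate. In mitochondria MTHFD2 and MTHFD1L convert that unit to formate, which the cytosol uses to make purines, thymidylate and methionine. In mammals the transcription factor ATF4 is known to activate several of these genes when amino acids are short.

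Libraries held 15731818 to 27110310 reads of Ensembl genes, and the 7 genes had 114 to 51011 reads per library. A count of 3 reads amounted to 0.111 to 0.191 CPM, below any level reported for them. The muscle markers MYOD1 and MYF5 were present in each group, and both were lowest in DM. MYOD1 stood at 332 ± 11.7, 254 ± 37.2 and 145 ± 11.2 FPKM in PM, GM and DM, and MYF5 at 406 ± 22.2, 294 ± 94.7 and 37.0 ± 8.65 FPKM. Of the 8 myogenic markers tested, 4 rose and 2 fell in DM versus PM, and 4 fell and 0 rose in DM versus GM (edgeR's quasi-likelihood test, Benjamini-Hochberg adjusted p below 0.05). Over all genes tested, 33.5% rose and 32.7% fell in DM versus PM, and 30.8% rose and 30.3% fell in DM versus GM. The markers that rose over PM were MYOG, CHRNA1, CHRND and TNNT3, a fast troponin. TNNT3 was at 61.5 ± 5.38 FPKM in PM, 604 ± 314 in GM and 342 ± 28.4 in DM. MYOG and CHRND also had their highest mean in GM, at 367 ± 138 and 45.1 ± 23.0 FPKM, against 300 ± 27.0 and 21.9 ± 0.966 in DM. CHRNA1 was at 108 ± 36.7 FPKM in GM and 110 ± 2.95 in DM. DES, which encodes the muscle filament desmin, was at 142 ± 7.98 FPKM in the DM libraries, lower than its 811 ± 407 in GM. Connective tissue markers moved with DM. Of 8 such markers named in the files, 7 were tested. By the same test 6 rose in DM versus GM, beside 30.8% of all genes, while POSTN fell. The summed level of the 8 was 1953 to 2080 FPKM in PM, 1107 to 1923 in GM and 3931 to 4573 in DM, with none of the 7 tested markers at 0 and TCF21, not tested, at or near 0 in each library. Their part in the results on DM was not tested. In bulk RNA a change in the number of cells of a type cannot be told apart from a change in RNA per cell.

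PHGDH, which oxidises 3-phosphoglycerate and opens the pathway, was the most changed of the 7 genes in DM. It lies on chromosome 8, 4264703 to 4268005, minus strand (ENSGALG00000002988). Its level was 33.6, 37.9 and 36.5 FPKM in PM replicates 1 to 3. In GM it was 57.6, 58.7 and 96.0 FPKM. In DM it reached 1469, 1599 and 1359 FPKM. The 3 groups did not overlap, and the lowest DM library stood far above the highest GM library. Group means were 36.0 ± 2.2, 70.8 ± 21.8 and 1476 ± 119.9 FPKM. The log2 fold change of DM over GM was 4.43 (SE 0.22), a 21.6-fold difference, and DM over PM it was 5.26 (SE 0.23), or 38.4-fold. GM over PM it was 0.83 (SE 0.20), and 0.52 without GM replicate 3, the highest of the GM libraries. By level PHGDH ranked 3011 to 3339 among all Ensembl genes in PM libraries, 1103 to 1956 in GM and 71 to 85 in DM. Its share of the reads went from 0.00478% to 0.00540% in PM to 0.193% to 0.227% in DM.

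**Figure D1:**
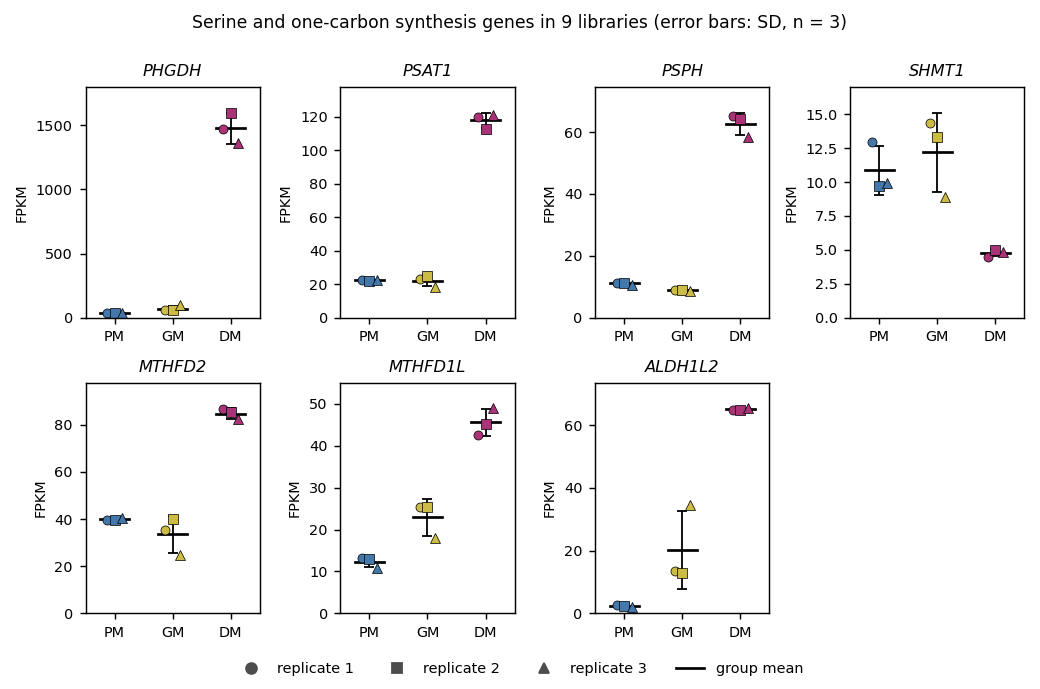
Level of each of the 7 genes in FPKM (vertical axis, linear, from 0) in the 9 libraries, by group (horizontal axis); symbols mark replicates, bars the group mean and error bars the SD, n = 3. PHGDH stands at 1359 to 1599 FPKM in DM against at most 96.0 elsewhere, and SHMT1 is the gene whose DM libraries lie lowest.

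PSAT1 and PSPH, the enzymes of the following steps, were both higher in DM than in GM and PM. PSAT1, which transfers an amino group from glutamate, is on chromosome Z, 37963280 to 37978569, plus strand (ENSGALG00000015180). It stood at 22.5, 21.8 and 22.4 FPKM in PM, 23.2, 24.9 and 18.3 in GM, and 119.7, 112 and 121 in DM. PM and GM overlapped, and all DM libraries were higher than both. The log2 fold change of DM over GM was 2.47 (SE 0.09), or 5.55-fold, against -0.16 (SE 0.09) for GM over PM. PSPH, the phosphatase that releases serine, is on chromosome 19, 4836675 to 4867667, minus strand (ENSGALG00000002397). Its levels were 11.2, 11.2 and 10.7 FPKM in PM, 9.05, 9.06 and 8.50 in GM, and 65.3, 64.2 and 58.5 in DM. GM was lowest in all 3 libraries and DM highest, with a log2 fold change of DM over GM of 2.88 (SE 0.08), or 7.35-fold. GM over PM it was -0.46 (SE 0.08). Across the 9 libraries PSAT1 and PSPH differed by a root mean square of 0.20 log2 units once each was centred on its own mean, the closest of the 21 pairs among the 7 genes.

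The balance between the 3 serine enzymes differed between groups, with PHGDH taking a larger share in DM. Its level per length was 1.49 to 1.74 times that of PSAT1 in PM, 2.48, 2.36 and 5.25 times in GM replicates 1 to 3, and 11.2 to 14.2 times in DM. PSAT1 stayed at 1.75 to 2.75 times the level of PSPH in all 9 libraries. PHGDH made up 49.9% to 53.4% of the summed FPKM of the 3 enzymes in PM, 63.4% to 78.2% in GM and 88.3% to 90.1% in DM. These ratios depend on the lengths behind the FPKM. For PHGDH, PSPH, SHMT1, MTHFD1L and ALDH1L2 the counts and FPKM imply lengths of 1394, 1529, 1441, 2445 and 2802 bases, shorter than the listed 1727, 2255, 1500, 2805 and 2835. The implied lengths were alike in all 9 tables, so comparisons between groups do not depend on them.

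SHMT1, the cytosolic enzyme that turns serine into glycine, went the other way. It is on chromosome 14, 5132126 to 5136038, minus strand (ENSGALG00000005046). Levels were 12.9, 9.73 and 9.92 FPKM in PM, 14.4, 13.4 and 8.87 in GM, and 4.48, 5.0 and 4.85 in DM. PM and GM overlapped, and every DM library was lower than every other library. The log2 fold change was -1.29 (SE 0.18) for DM over GM and -1.27 (SE 0.18) for DM over PM, which is 2.44-fold and 2.42-fold lower. GM over PM it was 0.02 (SE 0.17), with no settled sign. It turned to -0.05 and -0.03 without PM replicate 2 or 3, and to -0.12 and -0.04 without GM replicate 1 or 2. It was 0.16 without PM replicate 1 and 0.19 without GM replicate 3. The sign was kept in 14 of 18 alternative analyses, but those leaving out a DM library hardly bear on it. In DM SHMT1 had 152 to 165 reads per library, the fewest of the 7 genes there.

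MTHFD2, MTHFD1L and ALDH1L2, the 3 mitochondrial folate enzymes of the set, were higher in DM, with different paths through GM. MTHFD2, a dehydrogenase and cyclohydrolase of methylene-tetrahydrofolate, is on chromosome 22, 2886809 to 2893328, plus strand (ENSGALG00000034344). It stood at 39.4, 39.6 and 40.5 FPKM in PM, 35.5, 40.2 and 24.9 in GM, and 86.5, 85.4 and 82.3 in DM. PM and GM overlapped, while DM was higher than both, by a log2 fold change of 1.40 (SE 0.13) over GM and 1.00 (SE 0.13) over PM. GM over PM it was -0.40 (SE 0.13), and -0.24 without GM replicate 3.

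MTHFD1L, which releases formate from 10-formyl-tetrahydrofolate, was higher in GM than in PM and higher again in DM. It is on chromosome 3, 48792857 to 48928383, plus strand (ENSGALG00000012412). Levels were 13.1, 13 and 10.8 FPKM in PM, 25.4, 25.5 and 17.9 in GM, and 42.5, 45.3 and 48.9 in DM, with no overlap between groups. The log2 fold changes were 0.74 (SE 0.12) for GM over PM and 1.05 (SE 0.12) for DM over GM.

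ALDH1L2, which oxidises 10-formyl-tetrahydrofolate to carbon dioxide while making NADPH, covered the widest range of the 3. It is on chromosome 1, 54341803 to 54369311, plus strand (ENSGALG00000012691). Levels were 2.53, 2.44 and 1.97 FPKM in PM, 13.4, 12.7 and 34.6 in GM, and 65.0, 64.9 and 65.4 in DM. Groups did not overlap, GM was uneven because of replicate 3, and the DM libraries lay within 1 FPKM of each other. DM over PM the log2 fold change was 4.73 (SE 0.45), or 26.5-fold. GM over PM it was 3.01 (SE 0.43) and DM over GM 1.72 (SE 0.37), or 8.03-fold and 3.31-fold. Without GM replicate 3 these became 5.06-fold and 5.25-fold. MTHFD2 had 15.5 to 20.5 times the FPKM of ALDH1L2 in PM, 0.719 to 3.16 times in GM and 1.26 to 1.33 times in DM.

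**Figure D2:**
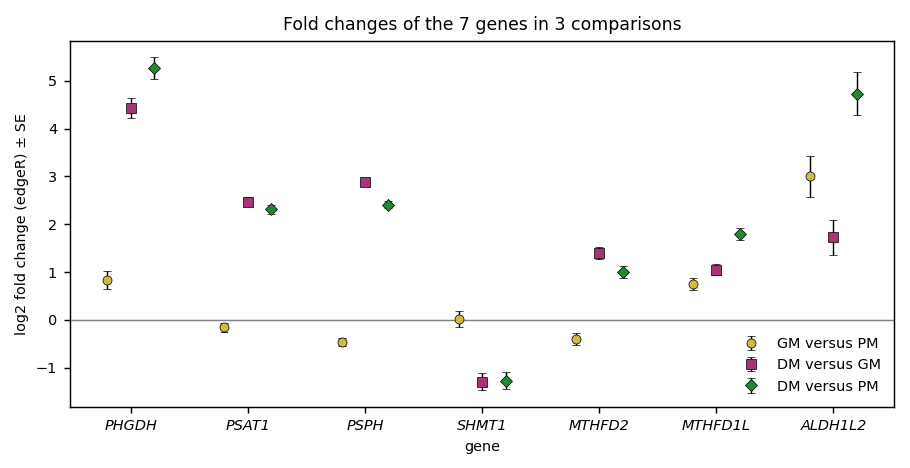
edgeR log2 fold change of each of the 7 genes (vertical axis) in the 3 comparisons, with error bars of 1 SE. DM lies above GM and PM for 6 genes and below both for SHMT1, while GM over PM runs from -0.46 for PSPH to 3.01 for ALDH1L2.

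In DM versus GM, 6 of the 7 genes were called higher and 1 lower. Over all genes tested 61.1% were called, 30.8% higher and 30.3% lower. In DM versus PM the count was again 6 higher and 1 lower, beside 66.2% of all genes, 33.5% higher and 32.7% lower. In GM versus PM, 3 were called higher and 2 lower, beside 66.1% of all genes, 32.0% higher and 34.1% lower. FPKM ranges did not overlap for 7 genes in DM versus GM, 7 in DM versus PM and 4 in GM versus PM. The same held for 66.5%, 73.7% and 69.8% of all genes tested. The median log2 fold change of the 7 was 1.72, 2.31 and 0.02 in these comparisons, and that of all genes -2.24e-04, 0.02 and -0.01. Since the 7 were chosen with these contrasts known, nothing is read from the counts. The comparisons share libraries, so they are not separate evidence of one another.

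GM replicate 3 stood apart from the other GM libraries over genes at large, with a chi-square per gene of 52.3 and 63.0 against GM replicates 1 and 2. Between GM replicates 1 and 2 it was 11.2. Among the 7 genes, the differences went in both directions. On the log2 CPM scale GM replicate 3 lay 1.46 above the mean of GM replicates 1 and 2 for ALDH1L2 and 0.78 above it for PHGDH. It lay below that mean for the other 5, by -0.58 for SHMT1, -0.54 for MTHFD2, -0.45 for MTHFD1L, -0.34 for PSAT1 and -0.03 for PSPH. For all genes tested, the 5th and 95th percentiles of this difference were -0.72 and 0.84, so only ALDH1L2 among the 7 fell outside them. The summed level of the 8 muscle markers in GM was 2014 to 3637 FPKM, against 1145 to 1301 in the other groups, and that of macrophage markers was 77.2 to 173 FPKM in GM and 530 to 564 in PM. GM replicate 3 was the highest GM library for both sums and the lowest for connective tissue markers, at 1107 FPKM. In GM replicates 1 to 3 DES was at 613, 541 and 1279 FPKM and TNNT3 at 407, 439 and 966. MYF5 was the muscle marker that went the other way, at 360, 336 and 185 FPKM. The erythroid sum was also highest in GM replicate 3, at 74.2 FPKM, with 19.8 as the lowest GM value and 3.25 to 4.27 in PM and DM. Of its genes, haemoglobin gene HBAA was at 19.4, 11.9 and 53.0 FPKM in GM replicates 1 to 3, and HBZ was listed at 0 in GM. GATA1, which made up most of the sum in PM and DM, was at 3.45 ± 0.217, 3.35 ± 0.323 and 3.75 ± 0.467 FPKM in PM, GM and DM. The part of all these markers in the differences of GM replicate 3 was not tested.

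**Figure D3:**
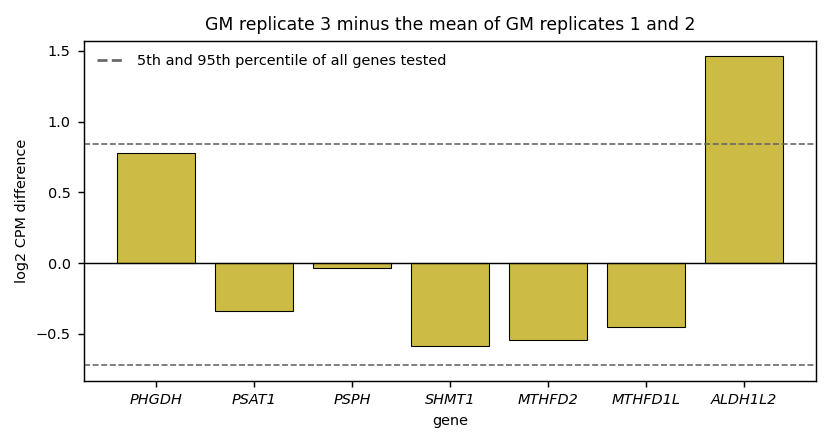
Log2 CPM of GM replicate 3 minus the mean of GM replicates 1 and 2 (vertical axis) for each of the 7 genes, with dashed lines at the 5th and 95th percentiles of all genes tested (-0.72 and 0.84). ALDH1L2 and PHGDH are higher in replicate 3 and the other 5 are lower.

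The genes around the pathway were not members and were taken from 6 lists, of which 60 of 84 names are in the files and 58 were tested. In DM versus GM 28 rose and 18 fell, 79.3% of those tested beside 61.1% of all genes. In DM versus PM 31 rose and 14 fell, 77.6% beside 66.2% of all genes. In GM versus PM 24 rose and 19 fell, 74.1% beside 66.1%. Over all genes tested, 30.8% rose and 30.3% fell in DM versus GM, and 33.5% and 32.7% in DM versus PM. In GM versus PM 32.0% of all genes rose and 34.1% fell.

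Among the other folate cycle genes, more fell than rose in DM. Of 12 tested, 2 rose and 7 fell in DM versus GM, beside 30.8% and 30.3% of all genes. The median log2 fold change was -0.50. MTHFD1, the cytosolic enzyme that takes formate back into the folate pool, went from 18.2 ± 0.506 FPKM in PM to 32.1 ± 2.71 in GM and 16.0 ± 1.16 in DM. It fell in DM versus GM by a log2 fold change of -0.95 (SE 0.07, edgeR adjusted p = 1.05e-06), with all 3 DM libraries below all GM libraries. The level of MTHFD1L was thus 0.590 to 0.783 times that of MTHFD1 in PM and GM, and 2.80 to 2.88 times in DM. TYMS, thymidylate synthase, fell from 21.7 ± 7.60 FPKM in GM to 6.48 ± 0.909 in DM (edgeR's log2 fold change -1.68 with an SE of 0.23, adjusted p = 1.18e-04). MTHFD2L, a paralog of MTHFD2, fell from 4.76 ± 1.02 to 2.11 ± 0.229 FPKM (edgeR adjusted p = 7.21e-04), and SLC25A32, the mitochondrial folate carrier, fell from 17.9 ± 1.66 to 10.5 ± 0.761 FPKM (edgeR adjusted p = 3.51e-05). In PM they had stood near their DM levels, MTHFD2L at 2.03 ± 0.251 and SLC25A32 at 10.8 ± 0.707 FPKM. Neither was called in DM versus PM (edgeR adjusted p = 0.915 and 0.219). In GM versus PM the largest change of the list was in DMGDH, a mitochondrial enzyme that yields folate carbon from dimethylglycine. It rose from 0.798 ± 0.0956 to 13.6 ± 5.92 FPKM (edgeR's log2 fold change 3.95 with an SE of 0.33, adjusted p = 4.03e-06), and lay 1.05 log2 CPM higher in GM replicate 3 than in the other GM libraries.

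The glycine cleavage system, which breaks down glycine and gives its carbon to mitochondrial folate, did not move as a unit. Its 4 genes gave 1 rise and 2 falls in DM versus GM, beside 30.8% and 30.3% of all genes, too few to read a count from. AMT, the aminomethyltransferase subunit, rose from 15.0 ± 1.62 to 34.5 ± 5.0 FPKM (edgeR's log2 fold change 1.26 with an SE of 0.14, adjusted p = 1.31e-05). GLDC, the glycine decarboxylase subunit, stayed under 1 FPKM in each library and fell from 0.921 ± 0.0824 to 0.324 ± 0.0583 FPKM (edgeR adjusted p = 1.86e-04). GCSH, the lipoyl carrier protein, was at 49.7 ± 8.85 and 48.0 ± 2.09 FPKM (edgeR adjusted p = 0.943). DLD, the shared dehydrogenase, went from 64.9 ± 6.21 to 54.9 ± 3.05 FPKM (edgeR adjusted p = 0.0393), a call lost in 8 alternatives, among them without GM replicate 2 or DM replicate 1, 2 or 3.

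In the list of serine transport, breakdown and use, 9 of 14 tested genes rose and 1 fell in DM versus GM, with a median of 0.44. Over all genes tested 30.8% rose and 30.3% fell. The 9 risers of the list were the transporters SLC1A4, SLC38A1, SLC38A2, SFXN1 and SFXN3, together with SRR, PTDSS1, PTDSS2 and SERINC2. Of these, SFXN3 and SRR were not called in DM versus PM (edgeR adjusted p = 0.128 and 0.323). SFXN3 stood at 28.3 ± 1.72, 18.6 ± 1.58 and 26.3 ± 2.39 FPKM in PM, GM and DM. SRR stood at 5.63 ± 0.193, 3.36 ± 1.02 and 7.08 ± 0.640 FPKM. The DM versus GM call of PTDSS1 was near the threshold (edgeR adjusted p = 0.0490). SFXN1, the mitochondrial serine carrier, was at 29.8 ± 1.11 FPKM in PM and fell to 20.7 ± 2.69 in GM (edgeR adjusted p = 3.10e-05). It then rose to 134 ± 2.34 in DM (edgeR's log2 fold change 2.75 with an SE of 0.09, adjusted p = 1.65e-09). SLC1A4, a neutral amino acid transporter that takes serine, rose from 28.6 ± 5.43 in GM to 119 ± 1.95 FPKM in DM (edgeR's log2 fold change 2.11 with an SE of 0.12, adjusted p = 9.21e-08). SLC38A2, a sodium-coupled amino acid transporter, rose from 48.7 ± 4.23 to 140 ± 12.1 FPKM (edgeR adjusted p = 5.40e-08), and SERINC2 from 1.94 ± 0.364 to 7.35 ± 1.10 FPKM (edgeR adjusted p = 4.02e-06). Of the lipid enzymes that consume serine, PTDSS2, a phosphatidylserine synthase, rose from 11.5 ± 1.68 to 27.1 ± 1.10 FPKM (edgeR adjusted p = 1.90e-06). SPTLC2, a subunit of serine palmitoyltransferase, fell from 20.6 ± 2.48 to 11.7 ± 1.41 FPKM (edgeR adjusted p = 1.02e-04).

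**Figure D4:**
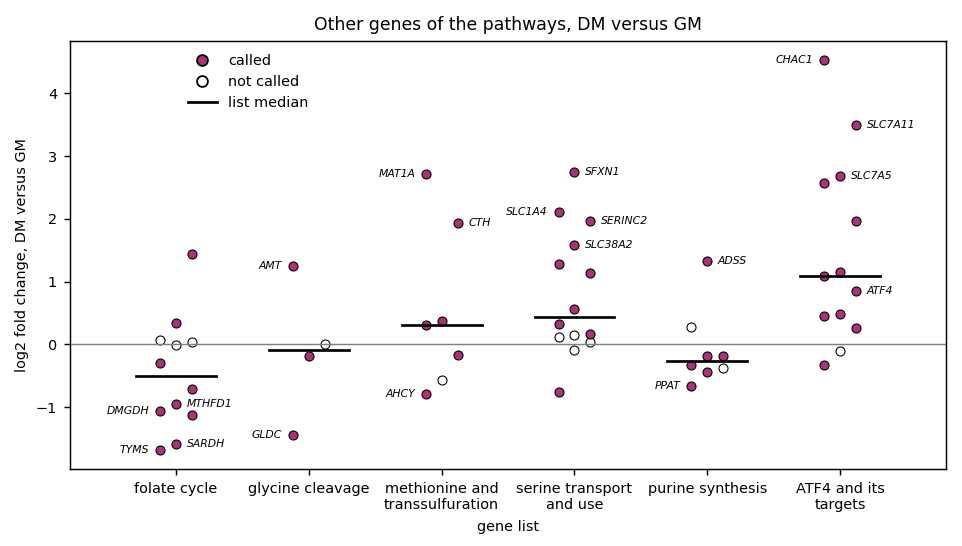
Log2 fold change of DM versus GM (vertical axis) for the 58 tested genes of the 6 lists (horizontal axis); filled points passed the test, open points did not, and lines are list medians. Folate cycle genes lie mostly below 0 (2 rose, 7 fell). The list of serine transport and use (9 rose, 1 fell) and the ATF4 list (11 rose, 1 fell) lie mostly above it. Over all genes tested 30.8% rose and 30.3% fell.

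In the methionine cycle and transsulfuration, 4 of 7 genes rose and 2 fell in DM versus GM, beside 30.8% and 30.3% of all genes. MAT1A, which makes S-adenosylmethionine, rose from 7.80 ± 1.51 to 49.6 ± 1.53 FPKM (edgeR's log2 fold change 2.72 with an SE of 0.14, adjusted p = 6.15e-08). CTH, the last enzyme of the route from serine and homocysteine to cysteine, rose from 18.2 ± 1.39 to 66.6 ± 2.49 FPKM (edgeR's log2 fold change 1.93 with an SE of 0.08, adjusted p = 7.00e-09). MTRR, which reactivates methionine synthase, rose from 12.1 ± 0.712 to 15.0 ± 0.477 FPKM (edgeR adjusted p = 0.00252). AHCY, which hydrolyses S-adenosylhomocysteine, fell from 389 ± 94.5 to 216 ± 17.1 FPKM (edgeR adjusted p = 0.00101), after rising from 141 ± 0.707 FPKM in PM to its GM level (edgeR adjusted p = 2.98e-05).

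The ATF4 list holds ATF4, partners and targets, and also kinases that act upstream of it and MYC. Of 13 tested, 11 rose and 1 fell in DM versus GM, with a median of 1.08, and 11 rose and 1 fell in DM versus PM, with a median of 0.80. NFE2L2 was the gene that fell in both, and MYC was not called in DM versus GM nor CEBPB in DM versus PM. In GM versus PM 3 rose and 4 fell. Over all genes tested, 30.8% rose and 30.3% fell in DM versus GM, and 33.5% and 32.7% in DM versus PM. The shares of all genes in GM versus PM were 32.0% and 34.1%. ATF4 rose from 545 ± 37.7 FPKM in GM to 945 ± 87.7 in DM (edgeR's log2 fold change 0.85 with an SE of 0.09, adjusted p = 7.27e-06). ASNS, asparagine synthetase, rose from 99.3 ± 14.8 to 372 ± 8.32 FPKM (edgeR's log2 fold change 1.97 with an SE of 0.09, adjusted p = 1.77e-08). The largest rise of the list was in CHAC1, a glutathione-degrading enzyme, from 8.31 ± 1.12 to 184 ± 36.9 FPKM (edgeR's log2 fold change 4.53 with an SE of 0.16, adjusted p = 8.93e-09). The cystine transporter gene SLC7A11 rose from 1.54 ± 0.563 to 16.5 ± 0.772 FPKM (edgeR adjusted p = 5.48e-07). SLC7A5, a carrier of large neutral amino acids, reached 207 ± 11.9 FPKM in DM against 33.4 ± 0.343 in GM (edgeR adjusted p = 1.65e-09). DDIT4, an inhibitor of growth signalling, rose from 174 ± 39.6 to 995 ± 187 FPKM (edgeR adjusted p = 1.39e-06). In GM versus PM ATF4, ASNS and CHAC1 fell, by log2 fold changes of -0.33, -0.47 and -1.31 (edgeR adjusted p = 0.00486, 5.17e-04 and 2.46e-05), and the ATF4 call was lost on both log2 FPKM scales and with the gene length trend removed. These are RNA levels, and ATF4 is known to be controlled largely at translation.

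**Figure D5:**
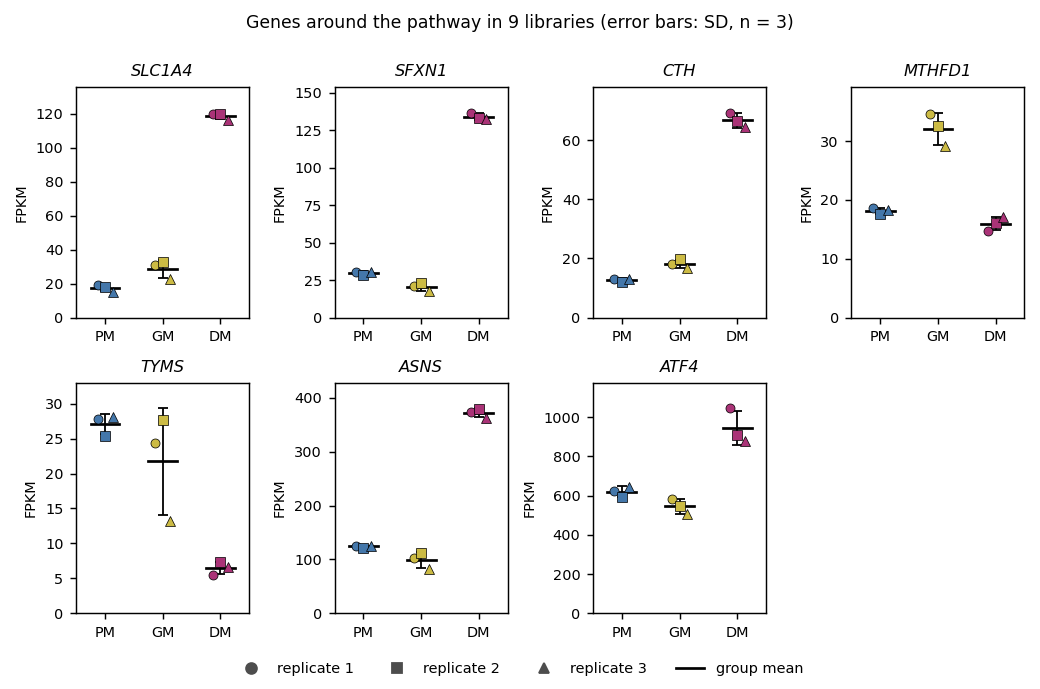
Level in FPKM (vertical axis, linear, from 0) of 7 genes around the pathway in the 9 libraries, by group (horizontal axis); symbols mark replicates, bars the group mean and error bars the SD, n = 3. SLC1A4, SFXN1, CTH, ASNS and ATF4 are highest in DM, and MTHFD1 and TYMS are lowest there.

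Genes next to the members on the chromosomes were looked at because strand use is not given. PSPH overlaps NIPSNAP2 on the opposite strand, which was at 46.3 ± 3.92, 37.8 ± 1.84 and 40.8 ± 1.89 FPKM in PM, GM and DM (DM versus GM edgeR adjusted p = 0.0848). MOB1A, 328 bases from MTHFD2 on the opposite strand, was at 130 ± 6.32, 92.8 ± 4.93 and 117 ± 1.86 FPKM in PM, GM and DM. MOB1A rose in DM versus GM (edgeR adjusted p = 3.43e-04) and fell in DM versus PM (edgeR adjusted p = 0.00655). PLEKHG1, 2087 bases from MTHFD1L on the same strand, rose from 1.02 ± 0.153 FPKM in PM to 2.55 ± 0.357 in GM (edgeR adjusted p = 3.75e-05) and to 4.50 ± 0.189 in DM (edgeR adjusted p = 2.18e-04 against GM). The tested neighbours of PSAT1 and ALDH1L2 had log2 fold changes of -0.05 to 0.38 in DM versus GM, and none of them was called.

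The genes most like each member were those with the smallest root mean square difference in log2 CPM over the 9 libraries, each gene centred on its own mean, among 7247 candidates with a symbol and a mean of at least 5 FPKM. For PHGDH it was PTGS2, a prostaglandin synthase, at 0.19 log2 units, with 5.19 ± 0.346, 8.48 ± 1.49 and 176 ± 23.4 FPKM in PM, GM and DM. PSAT1 lay closest to GJA1, a gap junction protein, at 0.11 log2 units. PSPH lay closest to PLA2G4A, a phospholipase, at 0.13 and to MXD4 at 0.15. SHMT1 was nearest to ATAD2 and HAUS6, at 0.09 and 0.11. MTHFD2 was nearest to KDELC1 and to DCN, decorin, both at 0.09. DCN, which is among the connective tissue markers, stood at 300 ± 2.04, 259 ± 70.6 and 672 ± 51.5 FPKM in PM, GM and DM. MTHFD1L was nearest to ITPR1, a calcium release channel, at 0.08. ALDH1L2 had no close counterpart, its nearest genes being MYLK4 and GGT5 at 0.64 and 0.65 log2 units.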

How the data were processed

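Total RNA behind the 9 libraries was sequenced after Trizol extraction, per the labels' protocols. HISAT and HTSeq are named in the submitters' processing notes. Genome build, annotation, tool versions and use of strand: not given in the sources used here. Every deposited table holds a read count and an FPKM per gene, per the file headers. Raw counts as deposited by the authors were tested, and the authors' FPKM were used for levels. The lengths implied by counts and FPKM matched the listed ones for 55.0% of 10496 genes with over 50 reads in each library (tolerance 0.001). Features without an Ensembl identifier (1.58% to 2.12% of reads) and 2 broken lines per GM and DM table were left out.

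The robust quasi-likelihood test of edgeR 4.0.16 (R 4.3.3) was run over the 9 libraries, after filterByExpr and TMM scaling. The threshold was 0.05 for p adjusted by Benjamini-Hochberg across the tested genes. SEs were derived by dividing the absolute log2 fold change by the square root of F. Replicates differed beyond sampling noise (chi-square per gene 6.10 to 63.0). Replicate numbers are not shown to pair the libraries. Correlations of deviations were -0.11 to 0.10 for libraries of the same number and -0.12 to 0.13 for the others, which cannot exclude a pairing. Log2 CPM used a prior count of 2.

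Members, gene lists and tests were chosen with earlier results of these data known. Named by rule were the members, up to 4 called genes per list and comparison with at least 5 FPKM, 13 fixed pathway genes where measured, and the nearest 2 genes to each member. Not all are printed, and MTHFD2L, SLC25A32, SPTLC2, neighbouring genes and markers were named after their values were seen. Promoter motifs planned for the members were not searched, since no sequence was used here. Alternatives were DESeq2 1.42.0, its size factors alone, testing without the filter, requiring 5 FPKM in 3 libraries, limma 3.58.1 on log2(FPKM + 0.1) and log2(FPKM + 1), 2-group fits, a replicate block, removal of the gene length trend (lowess, span 0.3) and leaving out each library. Values of some neighbouring and pathway genes are not reported here.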

Additional observations from a re-analysis of the deposited data

How the results depend on the processing

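Counts of called genes stayed within 1.5 times of the main ones under all 18 alternatives of each comparison. Upward this bound was loose, since most genes were already called, and for the pathway genes it could not be passed. The number of genes tested also differed, at 10472 with 5 FPKM required in 3 libraries, 14796 in the main analysis and 20813 without the filter. The counts ran from 7606 to 9868 for GM versus PM, 7001 to 9139 for DM versus GM and 7448 to 10426 for DM versus PM. The lowest of each came with 5 FPKM required. For the pathway genes, 58 of them tested in the main analysis, the counts ran from 37 to 45, 38 to 46 and 40 to 47. With the replicate number as a block, calls numbered 9537, 8755 and 9580, and 39, 41 and 45 among pathway genes. The replicate numbers are not shown to pair libraries. Shares of genes called higher or lower depended on the scale. In GM versus PM 4732 were higher and 5045 lower in the main fit, against 5651 and 4100 with limma on log2(FPKM + 0.1). In DM versus GM these were 4560 and 4478 against 4141 and 4793. In DM versus PM they were 4951 and 4837 against 5556 and 4245. Fold changes of the 7 members kept their sign in 374 of 378 refits, the 4 others being SHMT1 in GM versus PM. Refits that left out a library of the group not compared could hardly change a sign, so that total overstates how far signs were tried. All refits reuse the libraries known when the members were chosen, so nothing more is read from it. Of 84 values of named pathway genes, 7 lost their call in at least 1 alternative (SARDH, DLD, ATF4 and GLDC in GM versus PM, DLD and PRPS2 in DM versus GM, and MTHFD1 in DM versus PM). TYMS in GM versus PM, not called, passed with DESeq2 and without GM replicate 2. The cause was not tested. A processing batch cannot be told apart from PM, whose tables list 25950 features against 26591 elsewhere.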

Other observations

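Purine synthesis uses formyl groups from folate, and more of its genes fell than rose in DM versus GM, but not in the other comparisons. Of 8 genes tested, 1 rose and 5 fell in DM versus GM, with a median log2 fold change of -0.26. Some of these falls were marginal. ATIC and GMPS fell by log2 fold changes of -0.19 and -0.18 (edgeR adjusted p = 0.0458 and 0.0485). The call of PRPS2 in DM versus GM was lost in some alternatives, among them without GM replicate 1 or 2. Over all genes tested 30.8% rose and 30.3% fell in DM versus GM. In GM versus PM 5 rose and 3 fell, and in DM versus PM 4 rose and 2 fell. PRPS2, which makes the ribose donor, fell from 77.6 ± 3.36 FPKM in PM to 26.0 ± 6.15 in GM (edgeR's log2 fold change -1.73 with an SE of 0.15, adjusted p = 2.91e-06). PPAT, the committing enzyme of the route, fell from 34.8 ± 6.11 in GM to 21.1 ± 1.22 FPKM in DM (edgeR's log2 fold change -0.67 with an SE of 0.10, adjusted p = 1.66e-04). ATIC, which adds the last formyl group, rose from 68.5 ± 2.90 in PM to 122 ± 6.23 FPKM in GM (edgeR's log2 fold change 0.68 with an SE of 0.08, adjusted p = 1.28e-05). The only riser of the list in DM versus GM was ADSS, which acts after the ring is closed. It went from 63.8 ± 10.2 in GM to 154 ± 20.1 FPKM in DM (edgeR's log2 fold change 1.34 with an SE of 0.12, adjusted p = 2.49e-06).

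MYC, a growth regulator known in mammals to raise several of the members, rose from 43.3 ± 2.16 in PM to 81.2 ± 8.60 FPKM in GM (edgeR's log2 fold change 0.76 with an SE of 0.11, adjusted p = 1.00e-04). It was at 72.9 ± 8.28 FPKM in DM (DM versus GM log2 fold change -0.10, SE 0.11, edgeR adjusted p = 0.451).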
